A study of Mus musculus with 10 samples.

Results

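The enzymes that carry glucose carbon from hexokinase through pyruvate to malate were followed in the hippocampus of mice made to overexpress PGC-1α in neurons. A fixed list of 44 genes was used, with 16 genes of glycolysis, 13 genes of pyruvate handling and 15 genes of the citrate cycle. Members were the gene probes whose RefSeq accession belonged to a listed symbol, which gave 76 probes, and the brightest tested probe stood for each gene. Of the 44 genes, 41 could be tested, among 17597 named genes tested on the arrays. The remaining genes, Mpc2, Pdha1 and Dld, were left untested because the scanner software had marked their spots as outliers on 8, 5 and 7 of the 10 arrays.

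Glycolysis splits glucose into pyruvate in the cytosol and yields a little ATP. Pyruvate is either reduced to lactate or carried into mitochondria, where the pyruvate dehydrogenase complex turns it into acetyl-CoA and pyruvate dehydrogenase kinases switch that complex off by phosphorylation. The citrate cycle then oxidises acetyl-CoA and feeds the respiratory chain, on which neurons depend heavily, while astrocytes are known for active glycolysis. PGC-1α, encoded by Ppargc1a, is a transcriptional coactivator that works through factors such as the oestrogen-related receptors (ERR) and NRF1, and it is known for raising genes of oxidative metabolism in muscle and brown fat.

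RNA of whole hippocampus was read on 1-colour arrays, 1 array per mouse, for 5 PGC-1αf/f controls and 5 mice of the nPGC-1α genotype, to ask which transcripts shift when neurons carry extra PGC-1α in the basal state. PGC-1αf/f mice carry a PGC-1α transgene at Rosa26 that is silenced by a floxed PGK-neo-STOP cassette, and as littermate controls they lack Cre. The nPGC-1α mice are PGC-1αf/f Eno2-Cre animals, so the same transgene is present in both groups, and Cre under the promoter of Eno2 removes the cassette in neurons and lets PGC-1α be expressed together with IRES-eGFP. All were on a C57BL/6 background and given as 12-week-old males without surgery. Because whole tissue was profiled, fewer cells of a type and less RNA per cell cannot be told apart.

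Levels are log2 values relative to the 75th percentile of the array, and a difference is nPGC-1α minus PGC-1αf/f on that log2 scale. Only 1 tested probe read Ppargc1a itself, and it lay at 2.13 to 2.34 in PGC-1αf/f and at 2.06 to 2.31 in nPGC-1α, a difference of 0.00 (SE 0.09, n = 5 each). Whether that probe reads the transgene is not given in the sources used here, so group names below stand for the labels. The labels also give every mouse as male, yet the Y-linked transcript Eif2s3y was high, at 1.18 to 1.43, only on 1 control array (replicate 1) and on replicates 1, 3 and 5 of nPGC-1α, and lay between -8.86 and -6.16 on the other arrays. Some results below are given with and without this split, and no isoform pair was tested within it. Replicates 1 to 4 of each group shared slide 1, with PGC-1αf/f in array row 1 and nPGC-1α in array row 2. Replicate 5 of each group lay in row 1 of slide 2. Genotype and array row therefore cannot be told apart on slide 1. Spots well above background made up 74.48 to 81.51% of gene spots in PGC-1αf/f and 67.24 to 73.44% in nPGC-1α, without overlap. Marked outlier spots made up 10.52% of the gene spots on the first PGC-1αf/f array and 11.63% on the first nPGC-1α array, against at most 4.75% elsewhere, which is why these arrays are the ones most often missing below.

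Promoters were read for 43 of the 44 genes, 250 bases before to 50 bases after each annotated start, from RefSeq on build GRCm38.p6. Idh3a had no entry. The 4 printed here are those of Pdk4, the gene with the lowest p among the members, of Idh3g, whose ratio to Idh3a is described below, and of the genes that show an ERR element (Tpi1) and an NRF1 element (Sucla2), since PGC-1α acts through those factors. Capitals mark matches, on either strand, to the ERR element TNAAGGTCA, the NRF1 element (GCGCA, any base, then GCGC) and the hypoxia element ACGTG, which is also the core of the E-box CACGTG. None of the 3 motifs contains another.
Pdk4, chr6:5496229-5496528, minus strand: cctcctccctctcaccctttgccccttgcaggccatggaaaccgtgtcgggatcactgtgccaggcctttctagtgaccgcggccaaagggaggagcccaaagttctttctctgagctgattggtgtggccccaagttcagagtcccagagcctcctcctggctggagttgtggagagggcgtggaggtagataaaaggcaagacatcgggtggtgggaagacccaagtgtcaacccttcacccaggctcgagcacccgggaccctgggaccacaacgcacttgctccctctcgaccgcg
Tpi1, chr6:124814109-124814408, minus strand: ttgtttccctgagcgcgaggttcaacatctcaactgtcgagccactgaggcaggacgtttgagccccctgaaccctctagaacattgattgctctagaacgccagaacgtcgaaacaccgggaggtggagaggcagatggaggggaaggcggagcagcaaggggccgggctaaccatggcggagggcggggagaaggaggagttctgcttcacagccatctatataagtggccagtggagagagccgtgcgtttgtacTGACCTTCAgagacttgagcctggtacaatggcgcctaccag
Sucla2, chr14:73552536-73552835, plus strand: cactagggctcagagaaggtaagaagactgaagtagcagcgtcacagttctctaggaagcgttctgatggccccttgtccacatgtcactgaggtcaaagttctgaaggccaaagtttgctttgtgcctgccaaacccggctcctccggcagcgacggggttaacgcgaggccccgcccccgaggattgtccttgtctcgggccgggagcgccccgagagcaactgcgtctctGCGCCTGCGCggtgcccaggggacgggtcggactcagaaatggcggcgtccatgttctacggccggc
Idh3g, chrX:73786848-73787147, minus strand: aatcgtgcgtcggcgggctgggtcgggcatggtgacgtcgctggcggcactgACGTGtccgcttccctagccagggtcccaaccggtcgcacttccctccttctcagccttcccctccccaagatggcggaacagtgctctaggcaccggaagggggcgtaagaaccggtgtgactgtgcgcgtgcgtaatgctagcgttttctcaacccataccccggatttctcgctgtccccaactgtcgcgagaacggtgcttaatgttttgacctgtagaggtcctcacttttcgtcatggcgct
The Pdk4 promoter held none of the 3 motifs. The ERR element lay in 1 member promoter (Tpi1), 2.33% of the 43 members against 1.43% of 27025 genes. Matches to the NRF1 element lay in 5 members, namely Pgam1, Eno1, Ldha, Dld and Sucla2, which is 11.6% against 5.19% of all genes. The hypoxia element lay in 18 members (41.9%) against 21.8% of all genes, among them Hk1, Hk2, Pgk1, Pkm and Ldha. A gene was counted when any of its listed starts held the letters. These are matches of letters, read as a description of the windows.

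No member passed an adjusted p of 0.05, and most of the 41 genes lay close to equal levels in both groups. The lowest adjusted p, from limma with Benjamini-Hochberg adjustment over all probes, was 0.373. In the whole data set 1 of 17597 named genes passed (0.00568%). At an unadjusted p of 0.05, 0 members were higher in nPGC-1α and 1 was lower (Pdk4), while 3.18% of named genes were higher and 5.03% were lower. Members are bright genes, 37 of them above the median brightness of the named genes, and among genes above it 1.65% of genes were higher and 1.89% lower at the same p. The members' count was therefore near the background in both directions. The scaling of the arrays moved the split over all named genes, from 560 higher and 885 lower to 584 higher and 250 lower with quantile normalization.

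The size of a difference that the arrays could have missed was small for most members. The 95% confidence interval of the difference lay wholly within 1.5-fold in either direction for 38 of the 41 genes, the exceptions being Pdk4, Idh1 and Hk2. By this probe and scaling, no member differed by 1.5-fold or more, and 35 differed by less than 1.1-fold. The pooled SD within groups had a median of 0.13 over the members and 0.19 over all named genes. All 41 were well above background on all 10 arrays. Among the 31 members with a value on every array, 0 had groups that did not overlap, where 2.07% of such named genes did.

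**Figure D1:**
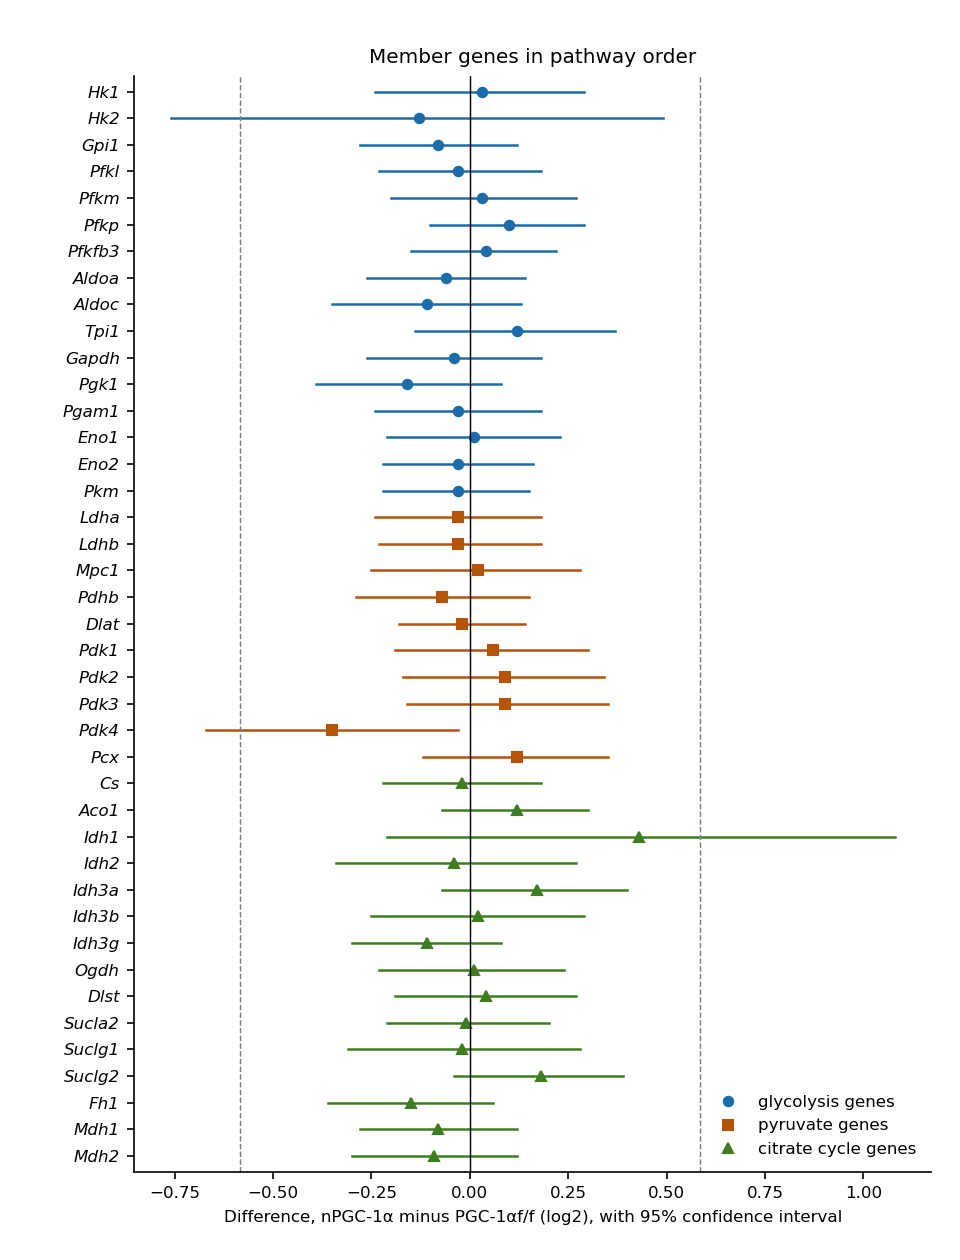
Difference between nPGC-1α and PGC-1αf/f (log2, horizontal axis) for the 41 tested genes in pathway order, with bars for the 95% confidence interval and dashed lines at 1.5-fold. Pdk4, at -0.35, is the one gene whose interval leaves out 0, and the widest interval is that of Idh1, from -0.21 to 1.08.

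The median difference was -0.03 over 16 glycolysis genes, 0.00 over 10 pyruvate genes and -0.01 over 15 citrate cycle genes, beside -0.02 over all named genes. Above 0 lay 18 of the 41 members (43.9%), near the 43.3% of named genes, and this split turned with the scaling, to 32 above 0 with median scaling, 35 with the normexp background correction, 36 with quantile normalization, and to 30 with the authors' log2 values. With the first 3 of these the median of all named genes was 0.04. No direction is therefore given for the pathway as a whole.

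Glucose entry and the upper steps of glycolysis came first. Hk1, the main hexokinase of brain, which traps glucose by phosphorylation, read 3.10, 2.61, 2.81, 3.07 and 3.14 on PGC-1αf/f replicates 1 to 5 and 3.17, 2.92, 2.84, 2.90 and 3.03 on nPGC-1α replicates 1 to 5. The groups overlapped throughout, with a difference of 0.03 (SE 0.12). Hk2, the hexokinase typical of muscle, was the most scattered glycolysis gene, from -2.16 to -0.56 in PGC-1αf/f and from -1.91 to -1.23 in nPGC-1α, and its interval of -0.76 to 0.49 reaches past 1.5-fold on the lower side. Gpi1, which isomerises glucose 6-phosphate, differed by -0.08 (SE 0.09).

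Phosphofructokinase, the committed step, is built from muscle, liver and platelet type subunits, of which Pfkp is prominent in brain. Pfkm read 2.56, 2.72, 2.86 and 2.82 on PGC-1αf/f replicates 2 to 5 and 2.77, 2.69, 2.78 and 2.85 on nPGC-1α replicates 2 to 5. These ranges overlapped and the difference was 0.03 (SE 0.10). Pfkp read 2.42, 2.11, 2.24, 2.43 and 2.33 on the PGC-1αf/f arrays and 2.51, 2.42, 2.31, 2.37 and 2.41 on the nPGC-1α arrays. All 5 nPGC-1α arrays lay at or above the control mean, but 0.10 (SE 0.09, limma adjusted p = 0.685) was not distinguishable from the spread. Pfkl differed by -0.03, and Pfkfb3, which makes the activator of phosphofructokinase, by 0.04.

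Aldoc, the aldolase of brain that is abundant in astrocytes, read 3.88, 3.60, 3.44, 3.67 and 3.33 in PGC-1αf/f and 3.55, 3.47, 3.42, 3.52 and 3.41 in nPGC-1α. Every nPGC-1α array lay below the control mean, and PGC-1αf/f replicates 1 and 5 bounded the range on both sides, so that -0.11 (SE 0.11) was within the control spread, and it turned to 0.03 with quantile normalization. Aldoa, the widely expressed aldolase, differed by -0.06 (SE 0.09). Tpi1, which interconverts the triose phosphates, read 2.93, 2.62, 2.97, 3.09 and 2.73 against 3.08, 2.99, 3.02 and 2.86 on nPGC-1α replicates 2 to 5. Its difference of 0.12 (SE 0.12) was no larger than its error. A brighter Tpi1 probe, left untested with spots marked on 5 arrays, differed by -0.03 with all spots kept.

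In the lower steps of glycolysis, Gapdh, the oxidising step, differed by -0.04 (SE 0.10). Pgk1, the first step to yield ATP and also the gene whose promoter is named in the PGK-neo cassette, read 3.33, 3.18, 3.01, 3.32 and 3.39 in PGC-1αf/f and 3.07, 2.98, 3.08 and 3.23 on nPGC-1α replicates 2 to 5. It was the lowest difference in glycolysis, -0.16 (SE 0.11, limma adjusted p = 0.581), and became -0.02 with the authors' log2 values. Pgam1, the mutase before enolase, differed by -0.03.

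Eno2, the neuronal enolase whose promoter drives Cre in these mice, read 3.16, 2.92, 3.09, 3.24 and 3.21 in PGC-1αf/f and 3.18, 3.11, 2.99, 3.07 and 3.11 in nPGC-1α. The nPGC-1α arrays lay inside the control range, with a difference of -0.03 (SE 0.09) that turned to 0.07 with the normexp correction. Eno1, the general enolase, differed by 0.01. Pkm, pyruvate kinase, the last step of glycolysis, read 3.51, 3.34, 3.32, 3.47 and 3.44 against 3.56, 3.38, 3.30, 3.31 and 3.37. That is -0.03 (SE 0.08), and it turned to 0.08 with quantile normalization and 0.07 with the authors' log2 values.

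Lactate dehydrogenase interconverts pyruvate and lactate, with Ldha favoured in glycolytic cells and Ldhb in cells that burn lactate. Ldha read 3.18, 2.95, 2.88, 3.14 and 3.16 in PGC-1αf/f and 3.19, 3.02, 2.89, 3.07 and 3.00 in nPGC-1α. Ldhb read 3.54, 3.42, 3.23, 3.47 and 3.37 in PGC-1αf/f and 3.58, 3.42, 3.31, 3.31 and 3.28 in nPGC-1α. Each differed by -0.03 (SE 0.09), and Ldhb turned to 0.11 with the normexp correction. The ratio of Ldha to Ldhb within an array, which asks whether the isoforms moved unequally, differed by -0.01 (SE 0.05, exact permutation p = 0.881, n = 5 each). With the mean of probes per gene it was 0.18 (SE 0.11, exact permutation p = 0.167).

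At the mitochondrial entry, Mpc1, a subunit of the pyruvate carrier, differed by 0.02 (SE 0.12). Its partner Mpc2 could not be tested once marked spots were dropped. With all spots kept it lay at 2.84 to 3.12 and 2.63 to 2.95, a difference of -0.16 (SE 0.10). Pdha1, the E1 alpha subunit that the kinases phosphorylate, read 2.50, 2.29, 1.73, 2.25 and 2.40 in PGC-1αf/f and 2.36, 2.24, 2.31, 2.29 and 2.23 in nPGC-1α with all spots kept. PGC-1αf/f replicate 3 was by far the lowest array, and the difference was 0.05 (SE 0.13). Pdhb, the other E1 subunit, differed by -0.07 (SE 0.10), Dlat, the E2 core, by -0.02 (SE 0.07), and Dld, the shared E3 subunit, by 0.03 with all spots kept. Pcx, pyruvate carboxylase, which refills oxaloacetate and is chiefly astrocytic in brain, read 1.70, 1.19, 1.36, 1.46 and 1.57 against 1.72, 1.50, 1.51, 1.49 and 1.64. All nPGC-1α arrays lay above the control mean, by 0.12 (SE 0.11) on average, and the difference was -0.07 among the arrays with high Eif2s3y.

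Pdk4 was the member with the lowest p. It encodes a pyruvate dehydrogenase kinase that is known for its rise in fasting and on fatty acid fuel, where it spares pyruvate from oxidation. Pdk4 read -1.09, -0.95, -1.36, -1.26 and -1.08 on PGC-1αf/f replicates 1 to 5 and -1.14, -1.70, -1.42, -1.90 and -1.35 on nPGC-1α replicates 1 to 5. Replicates 2, 3 and 4 of nPGC-1α lay below every control array, replicates 1 and 5 lay within the control range, and the groups overlapped. The difference was -0.35 (SE 0.15, 95% interval -0.67 to -0.03, limma adjusted p = 0.373), or 1.28-fold lower, and an exact Mann-Whitney test gave p = 0.0556. With the Eif2s3y class as a block it was -0.48, among arrays without the high transcript -0.63 and among arrays with it -0.22. Adjusted p ran from 0.227 to 0.972 over the alternatives, and the unadjusted p stayed under 0.05 in 16 of 27, with the 3 other scalings and 5 of the 10 omissions of an array among the settings where it did not.

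The other kinases of the family lay slightly above 0. Pdk1, induced in low oxygen, read 0.00, -0.46, -0.39, -0.22 and 0.03 in PGC-1αf/f and -0.04, -0.15, -0.25, -0.14 and -0.16 in nPGC-1α, a difference of 0.06 (SE 0.11). Pdk2, the most widespread kinase, differed by 0.09 (SE 0.12) and Pdk3 by 0.09 (SE 0.11). The log2 ratio of Pdk1 to Pdk4 within an array was 1.09, 0.49, 0.97, 1.04 and 1.11 in PGC-1αf/f and 1.10, 1.54, 1.17, 1.75 and 1.19 in nPGC-1α. Only PGC-1αf/f replicate 5 reached past the lowest nPGC-1α array, and the difference of 0.41 (SE 0.17) had an exact permutation p of 0.0159 (adjusted 0.171 over 18 pairs). The ratio of Pdk2 to Pdk4 differed by 0.44 (SE 0.18, exact permutation p = 0.0476, adjusted 0.171), and that of Pdk3 to Pdk4 by 0.60 over 4 and 3 arrays (SE 0.18, exact permutation p = 0.0571, adjusted 0.171). Among the kinases without Pdk4, ratios differed by -0.03 for Pdk1 to Pdk2, -0.02 for Pdk1 to Pdk3 and -0.10 for Pdk2 to Pdk3. All 3 ratios with Pdk4 share its probe, so they are not separate evidence.

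**Figure D2:**
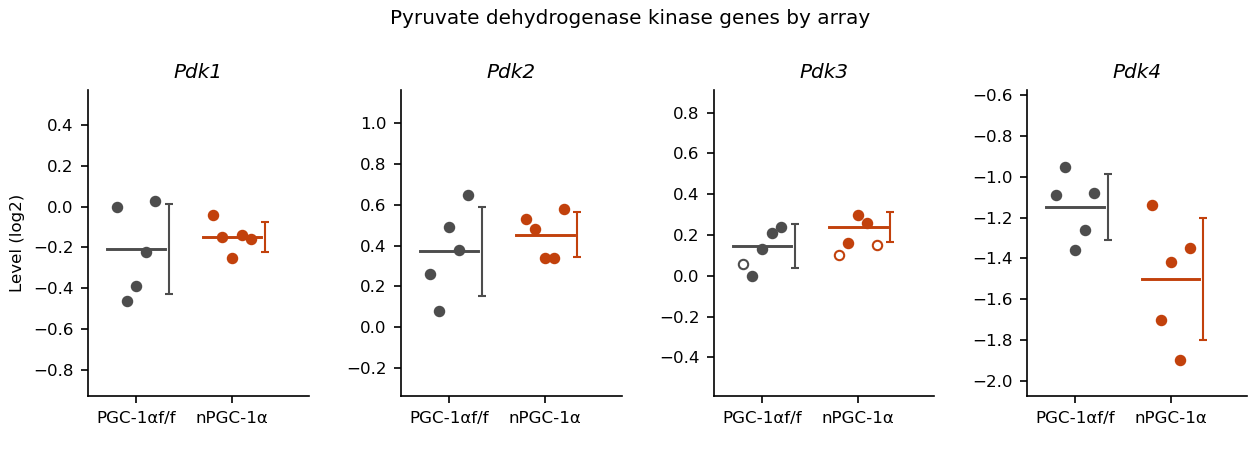
Level of each pyruvate dehydrogenase kinase gene on every array (log2 relative to the 75th percentile, vertical axis), with a line for the group mean and a bar for 1 SD over filled points; open points are spots marked as outliers and enter neither. Pdk4 spans -1.36 to -0.95 in PGC-1αf/f and -1.90 to -1.14 in nPGC-1α, while Pdk1, Pdk2 and Pdk3 lie within 0.10 of the control mean on average.

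At the head of the citrate cycle, Cs, citrate synthase, read 2.84, 2.65, 2.66, 2.90 and 3.02 in PGC-1αf/f and 2.84, 2.74, 2.74, 2.78 and 2.86 in nPGC-1α. The nPGC-1α arrays sat inside the control range and differed by -0.02 (SE 0.09). Aco1, the cytosolic aconitase that also serves as an iron sensor, read 0.14, 0.05, 0.07, 0.08 and 0.22 against 0.11, 0.11, 0.34, 0.31 and 0.28. Replicates 3, 4 and 5 of nPGC-1α lay above every control, and the difference was 0.12 (SE 0.08, limma adjusted p = 0.604).

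The NAD-linked isocitrate dehydrogenase, a rate-setting step, is assembled from the subunits encoded by Idh3a, Idh3b and Idh3g, and its alpha and gamma genes lay on opposite sides of 0. Idh3a read 1.14, 1.28 and 1.25 on PGC-1αf/f replicates 2 to 4 and 1.38, 1.37, 1.37 and 1.44 on nPGC-1α replicates 2 to 5. The groups did not overlap, at 0.17 (SE 0.10, limma adjusted p = 0.552). The share of named genes without overlap, 2.07%, covers only genes with 10 values after marked spots were dropped. No share was counted for genes with missing values or with marked spots kept. With the marked spots kept, PGC-1αf/f replicates 1 and 5 read 1.35 and 1.21 and nPGC-1α replicate 1 read 1.52, still without overlap and with an adjusted p of 0.431 from limma. Idh3g read 3.21, 2.88, 2.99, 3.13 and 3.05 in PGC-1αf/f and 3.03, 2.99, 2.88, 2.93 and 2.91 in nPGC-1α, a difference of -0.11 (SE 0.09) that became 0.02 with the normexp correction. A second Idh3g probe differed by -0.14 (SE 0.11). Idh3b, the beta subunit, differed by 0.02 (SE 0.12).

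Within an array, the log2 ratio of Idh3a to Idh3g was -1.74, -1.71 and -1.88 on PGC-1αf/f replicates 2 to 4 and -1.60, -1.50, -1.56 and -1.47 on nPGC-1α replicates 2 to 5. The shift of 0.24 (SE 0.06) had an exact permutation p of 0.0571, the smallest that 3 against 4 arrays can give, and an adjusted p of 0.171 over 18 pairs. With marked spots kept, all 5 arrays per group gave -1.88 to -1.71 and -1.60 to -1.47, a shift of 0.27 (SE 0.04, exact permutation p = 0.00794, adjusted 0.159 over 20 pairs). That p is the smallest that 5 against 5 arrays can give, and 1 pair at that p among 18 would still have an adjusted p of 0.143. The authors' log2 values gave 0.20 (SE 0.04) with the same p and an adjusted p of 0.0952, and the normexp correction gave 0.19, with overlap (exact permutation p = 0.114). The ratio of Idh3a to Idh3b differed by 0.22 over 3 and 4 arrays and by 0.10 with marked spots kept.

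**Figure D3:**
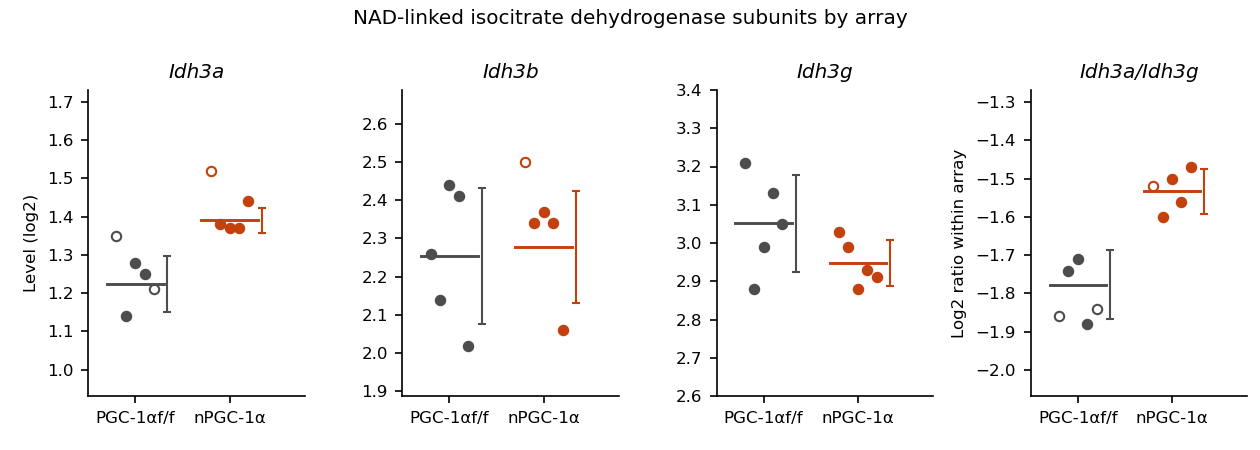
Levels of Idh3a, Idh3b and Idh3g (log2 relative to the 75th percentile) and the within-array log2 ratio of Idh3a to Idh3g on every array, with a line for the mean and a bar for 1 SD over filled points; open points hold a spot marked as an outlier. In the ratio panel the nPGC-1α arrays, at -1.60 to -1.47, lie above all PGC-1αf/f arrays, at -1.88 to -1.71.

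The NADP-linked enzymes supply NADPH in the cytosol (Idh1) and in mitochondria (Idh2). Idh1 read -2.48, -3.32, -2.61, -2.58 and -3.52 in PGC-1αf/f and -3.23, -2.35, -1.91, -2.00 and -2.86 in nPGC-1α. It was the most variable member, with SDs of 0.48 and 0.57, and only nPGC-1α replicates 2, 3 and 4 exceeded all controls. The difference of 0.43 (SE 0.29, 95% interval -0.21 to 1.08, limma adjusted p = 0.581) was 0.83 among arrays without high Eif2s3y and -0.18 among arrays with it. Without nPGC-1α replicate 1 it was 0.62. Oligodendrocyte markers were highest on nPGC-1α replicates 3, 4 and 5, and their part in the Idh1 level was not tested. Idh2 differed by -0.04 (SE 0.14).

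Further round the cycle, Ogdh, the E1 subunit of the oxoglutarate dehydrogenase complex, read 3.06, 2.66, 2.75, 2.98 and 2.96 against 3.06, 2.83, 2.73, 2.83 and 2.99. The groups lay together, at 0.01 (SE 0.11), and Dlst, the E2 subunit of the same complex, differed by 0.04 (SE 0.10). Suclg2, the GTP-specific subunit of succinyl-CoA ligase, read -1.68, -1.44, -1.52, -1.48 and -1.72 in PGC-1αf/f and -1.35, -1.26, -1.26, -1.54 and -1.53 in nPGC-1α. All 5 nPGC-1α arrays lay above the control mean, replicates 1, 2 and 3 above every control, and the difference was 0.18 (SE 0.10, limma adjusted p = 0.501). Of its dimmer probes, one differed by 0.04 (SE 0.22) and another, with its own accession, by 0.48 (SE 0.44). Sucla2, the ATP-specific partner typical of brain, differed by -0.01 (SE 0.09) and Suclg1, the common subunit, by -0.02 (SE 0.13). The ratio of Sucla2 to Suclg2 differed by -0.15 (SE 0.10, exact permutation p = 0.257, n = 4 each). It ran from -0.37 with the mean of probes to -0.08 without nPGC-1α replicate 3, and was -0.09 without PGC-1αf/f replicate 5, -0.22 with the authors' values (exact permutation p = 0.0397), -0.23 with marked spots kept (0.0714) and -0.24 with the normexp correction (0.0571).

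Fh1, fumarase, read 2.48, 2.26, 2.15, 2.38 and 2.38 in PGC-1αf/f and 2.11, 2.17, 2.24 and 2.21 on nPGC-1α replicates 2 to 5. Each of these 4 nPGC-1α arrays lay below the control mean, and -0.15 (SE 0.09, limma adjusted p = 0.569) became -0.09 once the marked spot of nPGC-1α replicate 1, at 2.45, was kept. Mdh1 and Mdh2, the cytosolic and mitochondrial malate dehydrogenases, differed by -0.08 and -0.09, and their ratio by 0.01 (SE 0.04, exact permutation p = 0.825, n = 5 each). A brighter Mdh1 probe, left untested with spots marked on 5 arrays, differed by 0.03 with all spots kept.

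Of the isoform pairs, 18 of 20 could be tested and 0 passed an adjusted p of 0.05, the lowest being 0.171. Among 18 pairs, 1 pair alone could not pass, since its adjusted p is at least 0.143. Pdk1 to Pdk3, Pdk2 to Pdk3, Pdk3 to Pdk4, Idh3a to Idh3b and Idh3a to Idh3g had 3 and 4 arrays. Their smallest possible exact permutation p is 0.0571, where Pdk3 to Pdk4 and both Idh3a pairs lay. These pairs could not pass an unadjusted p of 0.05 either. At that unadjusted exact permutation p of 0.05, 2 of the other pairs passed, Pdk1 to Pdk4 and Pdk2 to Pdk4. Over 17 alternatives Pdk1 to Pdk4 passed that p in 15, the exceptions being the normexp correction (exact permutation p = 0.0556) and the mean of probes (0.183). None of the 17 took the Eif2s3y class into account. On arrays with high Eif2s3y this ratio was 1.09 on PGC-1αf/f replicate 1 and 1.10, 1.17 and 1.19 on nPGC-1α replicates 1, 3 and 5. On the others it was 0.49 to 1.11 in PGC-1αf/f and 1.54 and 1.75 on nPGC-1α replicates 2 and 4. Pdk2 to Pdk4 passed in 6 of 17 and in 3 of the 10 omissions of an array, and its exact permutation p was 0.0635 with the authors' values, 0.0873 with the normexp correction, 0.103 with quantile normalization and 0.114 on slide 1 alone. With the authors' values 4 pairs passed, which were Pdk1 to Pdk4, Idh3a to Idh3g, Pfkp to Pfkl (0.17, exact permutation p = 0.0159) and Sucla2 to Suclg2. Among pairs that are tissue forms of one step, the difference in ratio was 0.04 (SE 0.05) for Eno1 to Eno2, 0.05 (SE 0.09) for Aldoa to Aldoc, 0.16 (SE 0.27) for Hk1 to Hk2, -0.07 (SE 0.02) for Pfkm to Pfkp and 0.12 (SE 0.07) for Pfkp to Pfkl. Eno1 to Eno2 became 0.33 (SE 0.20) with the mean of probes. Hk1 to Hk2 ran from -0.08 on slide 1 alone to 0.33 without PGC-1αf/f replicate 4, and was -0.02 without PGC-1αf/f replicate 5. For Pfkm to Pfkp the exact permutation p was 0.0571 (n = 4 each, adjusted 0.171).

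Probes of the same gene did not always give the same picture. Of 18 members with several tested probes, 9 had all probes on 1 side of 0. The 25 dimmer probes had a median difference of 0.11, with 16 above 0 (64%), beside 0.05 and 58.2% over 7426 dimmer probes of all named genes. At an unadjusted p of 0.05, 2 dimmer probes of members were higher (8%, beside 6.96% of all dimmer probes), those of Pkm and Dlat.

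The dimmer Pkm probe read 0.30, -0.27, 1.17, 1.24 and 0.72 in PGC-1αf/f and 1.27, 1.41, 1.06, 1.29 and 1.37 in nPGC-1α. Its difference was 0.65 (SE 0.26, limma adjusted p = 0.357) where the brightest probe gave -0.03. The low values lay on PGC-1αf/f replicates 1, 2 and 5, and replicates 3 and 4 matched the nPGC-1α arrays. The dimmer Ldha probe had the same arrays low, at -2.15, -2.30, -1.40, -1.57 and -3.23 in PGC-1αf/f against -1.50, -1.50, -1.33 and -1.75 on nPGC-1α replicates 2 to 5, a difference of 0.61 (SE 0.32). For Eno1 the dimmer probe read -0.06, 2.05, 2.13 and 1.05 on PGC-1αf/f replicates 2 to 5 and 2.14, 1.91, 2.14 and 1.89 on nPGC-1α replicates 2 to 5, again low on control replicates 2 and 5. For Dlat it read -1.26, -1.07, -0.69, -0.55 and -0.93 against -0.46, -0.47, -0.41 and -0.73, with control replicates 1, 2 and 5 lowest as well, and the difference was 0.38 (SE 0.15, limma adjusted p = 0.365). Both probes of each of these 4 genes carry the same accession, and where on the transcript each probe lies is not given in the sources used here.

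**Figure D4:**
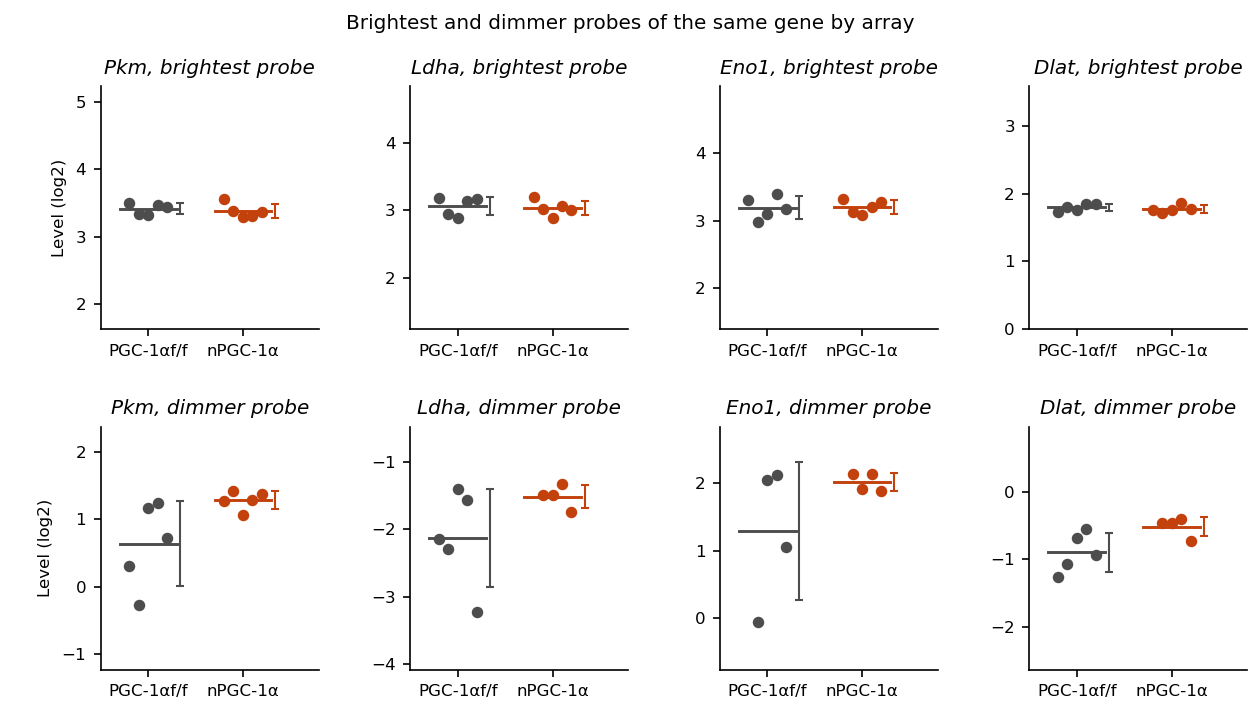
Level on every array (log2 relative to the 75th percentile, vertical axes of equal span) from the brightest probe (upper row) and a dimmer probe (lower row) of Pkm, Ldha, Eno1 and Dlat, with a line for the mean and a bar for 1 SD. The brightest probes differ by -0.03 to 0.01, whereas the dimmer probes differ by 0.38 to 0.73 with the scatter on the PGC-1αf/f side.

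The members also varied from array to array within a genotype. Relative to the PGC-1αf/f mean, the median of the 31 complete members was 0.14, -0.14, -0.09, 0.06 and 0.07 on PGC-1αf/f replicates 1 to 5 and 0.08, -0.04, -0.12, -0.05 and 0.03 on nPGC-1α replicates 1 to 5. PGC-1αf/f replicate 2 was the lowest array for 14 of the 31, and the first array of each group was the highest for 8. The SD was smaller in nPGC-1α for 24 of the 31 members (77.4%), beside 64.8% of named genes, with median SDs of 0.15 and 0.10 in the members. Leaving out any 1 array kept the member count between 21 and 27.

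Markers of hippocampal cell types were read beside the members. All 11 neuron markers, 10 astrocyte markers and 10 oligodendrocyte markers were well above background on all arrays. The median of the neuron markers was 0.09, -0.05, -0.18, 0.07 and 0.07 in PGC-1αf/f and 0.10, -0.06, -0.19, -0.07 and -0.02 in nPGC-1α. The median difference was -0.06 for neuron, -0.12 for astrocyte, 0.24 for oligodendrocyte, -0.14 for microglia (7 of 9 tested), 0.03 for endothelial and -0.13 for choroid plexus markers (7 of 8 tested). The choroid plexus markers stood apart on single arrays, with a median of 1.82 on PGC-1αf/f replicate 4 and 2.41 on nPGC-1α replicate 3, against -1.03 to 0.67 on the others. At an unadjusted p of 0.05, 1 marker was lower (Tmem119, microglia) and 1 higher (Kdr, endothelium), beside 5.03% and 3.18% of all named genes. The summed level of the markers with all values spanned 5.97 to 6.25 and 5.96 to 6.22 for neurons, 4.45 to 4.89 and 4.42 to 4.60 for astrocytes, and 4.04 to 4.38 and 4.09 to 4.47 for oligodendrocytes, in PGC-1αf/f and nPGC-1α in turn. Their part in the members' levels was not tested.

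**Figure D5:**
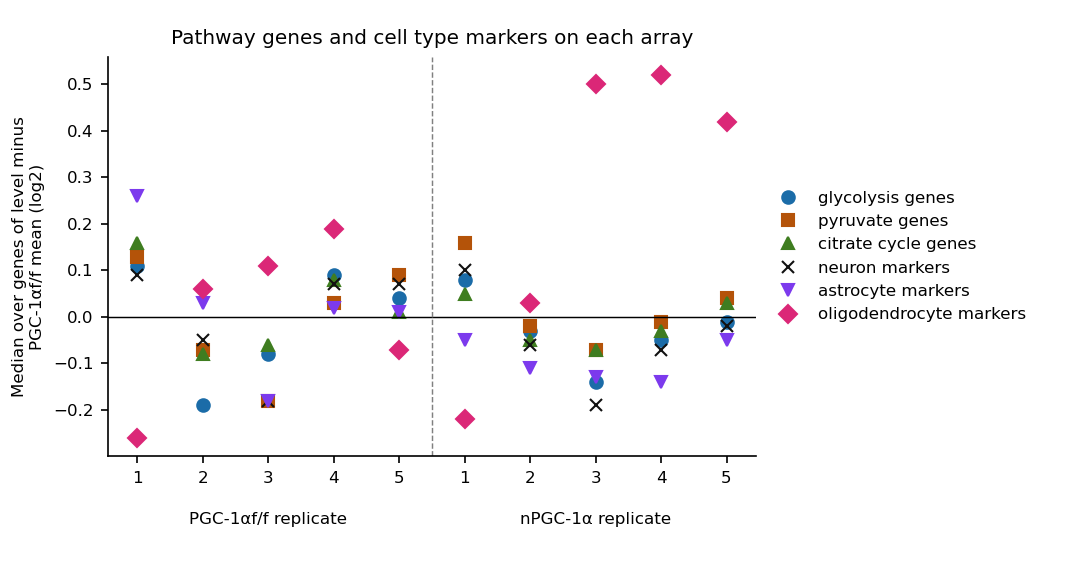
Median over the genes of each list of the level minus the PGC-1αf/f mean (log2, vertical axis), array by array. The glycolysis, pyruvate and citrate cycle genes stay between -0.19 and 0.16 with no step between the groups, while oligodendrocyte markers reach 0.42 to 0.52 on nPGC-1α replicates 3, 4 and 5.

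Genes that flank the pathway were counted from lists of transporters, further enzymes and shuttles. At an unadjusted p of 0.05, 3.18% of all named genes were higher and 5.03% lower. Among 5 of 6 tested glucose and lactate transporters, 1 was higher at that p and 0 were lower. That gene was Slc16a3, the lactate exporter MCT4 of glycolytic cells, which read -1.95, -2.60, -2.53, -2.68 and -2.59 in PGC-1αf/f and -1.53, -1.92, -1.44, -1.89 and -1.55 in nPGC-1α. The groups did not overlap, as in 2.07% of named genes with 10 values, although PGC-1αf/f replicate 1 came within 0.03 of an nPGC-1α array. The difference was 0.80 (SE 0.16, limma adjusted p = 0.106). The arrays with high Eif2s3y read highest in each group. These were PGC-1αf/f replicate 1, at -1.95, and nPGC-1α replicates 1, 3 and 5, at -1.53, -1.44 and -1.55. The other arrays read -2.68 to -2.53 in PGC-1αf/f and -1.92 and -1.89 on nPGC-1α replicates 2 and 4. The glucose transporters Slc2a1 of the endothelium and Slc2a3 of neurons differed by -0.01 (SE 0.10) and 0.21 (SE 0.15), and Slc16a7, the neuronal lactate importer, by -0.04 (SE 0.11).

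Of 22 other glycolysis and glucose storage genes tested, 1 was higher and 0 lower, namely Hkdc1, a hexokinase-like gene, at 0.28 (SE 0.12, limma adjusted p = 0.378). None of 9 further pyruvate genes, 7 further citrate cycle genes and 10 shuttle genes passed the unadjusted p in either direction. Their median differences were -0.05, 0.00 and 0.07. Sdha, of succinate dehydrogenase, differed by -0.08 (SE 0.10).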

How the data were processed

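Scanner files of 10 hippocampus arrays, 5 per genotype, were analysed, with groups and replicate numbers taken from the sample labels. Per the file headers, Feature Extraction 11.5.1.1 wrote them, whereas the methods name another version. The deposited scanner files hold the processed intensity of each spot, background-subtracted but not normalized between arrays, with pixel medians and with other columns, marks for spots well above background and for outliers, per the file headers. The authors also deposited a table of log2 values for 41606 probes, made with GeneSpring, with column medians of 9.92 to 9.93 and a scale and centring that are not given in the sources used here. It was used as an alternative (r of 0.9987 to 1 with the scanner values of the same array, across probes).

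Spots marked as outliers were dropped, repeat spots were averaged on the log2 scale, and each array was set to 0 at its 75th percentile. A probe was kept when 1 group had it well above background on all 5 arrays and each group had at least 3 values (39142 probes). RefSeq symbols (assembly GRCm38.p6) named 33767 of 56605 probes (59.7%), and the brightest tested probe stood for a gene. Differences were tested with limma 3.58.1 in R 4.3.3 without covariates, two-sided, with Benjamini-Hochberg adjustment over the probes kept. Isoform pairs were compared by the within-array log2 ratio with an exact two-sided permutation test in SciPy 1.17.1, adjusted over the pairs. The pipeline was tested on simulated data. The number of arrays limits the precision, and p-values measure the spread between these mice.

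The members, the lists and the tests were chosen with earlier results of these data known. Values per array are given for the 12 members with the lowest p and for Hk1, Pfkm, Pfkp, Eno2, Pkm, Ldha, Ldhb, Pdha1, Pcx, Cs, Idh3a and Ogdh. Pdk1, dimmer probes and Slc16a3 were singled out after their values were seen. Alternatives covered scaling, normexp background correction (with quantile normalization), filters, blocks, variance model, probe choice, the methods' Mann-Whitney test and each array left out.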

Additional observations from a re-analysis of the deposited data

Results flagged for a closer look

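Idh3b, the beta subunit gene of the NAD-linked isocitrate dehydrogenase, stood at 2.06 on nPGC-1α replicate 5, apart from the other nPGC-1α arrays, which lay at 2.34 to 2.37 (n = 4 with a value). The control array on the same slide, PGC-1αf/f replicate 5, was also the lowest of its group, at 2.02 against 2.14 to 2.44, so both arrays of slide 2 were low. The difference between groups was 0.02 with nPGC-1α replicate 5 and 0.09 without it alone. The marked spot of nPGC-1α replicate 1, left out here, read 2.50. With it the nPGC-1α arrays other than replicate 5 spanned 2.34 to 2.50, so the gap to 2.06 is less distinct. Among 79 groups of 4 or 5 arrays examined with marked spots dropped, 1 stood apart, where chance alone gives about 1 in 20.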

How the results depend on the processing

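Over 27 alternatives, 0 members passed an adjusted p of 0.05, and 0 isoform pairs passed in any setting run. Among 18 pairs, 1 pair alone could not pass, since its adjusted p is at least 0.143. At an unadjusted p of 0.05 the single lower member was Pdk4. It was not counted (0 lower) with median scaling, quantile normalization, the normexp correction, slide 1 alone or the exact Mann-Whitney test. Leaving out each array in turn gave 0 to 1 lower (0 without PGC-1αf/f replicates 1, 2 or 5 or nPGC-1α replicates 2 or 4) and 0 to 1 higher. Higher at that unadjusted p was 1 member among arrays without high Eif2s3y (Idh1), beside 1.45% of all named genes. With the authors' log2 values 2 members were higher (Idh3a and Suclg2), beside 3.96%. Members above 0 numbered 36 with quantile normalization, 35 with the normexp correction, 32 with median scaling, 30 with the authors' values, 7 of 35 among arrays with high Eif2s3y and 13 to 22 without 1 array. The glycolysis median was 0.081 with quantile normalization and 0.079 with the normexp correction. Among arrays with high Eif2s3y, of which PGC-1αf/f has 1, the pyruvate median was -0.154 and the citrate cycle median -0.158, Idh1 was at -0.18, Pfkp at -0.01 and Pcx at -0.07. Differences of the 20 members given by array changed sign 53 times, in 0 to 7 members per alternative. Among these were Cs at 0.07 and Aldoc at 0.03 with quantile normalization, Pkm at 0.07 with the authors' values, 0.08 with quantile normalization and 0.31 with the mean of probes, Ldha at 0.27 with the mean of probes, and, with the normexp correction, Idh3g at 0.02, Eno2 at 0.07 and Ldhb at 0.11. The cause was not tested.

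Further pathway genes at an unadjusted p of 0.05 numbered 2, with 5, 22, 9, 7 and 10 genes tested by list. In that setting 3.18% of all named genes were higher and 5.03% lower. In alternatives added after seeing the data, the count was 6 with the authors' values or the mean of probes. It was 5 with the Eif2s3y class or the slide as a block. It was 4 with array weights, no filter on dim probes, quantile normalization, slide 1 alone, arrays without high Eif2s3y or trended robust variance. Without 1 array it was 1 to 6. The background moved too, to 3.96% higher and 4.74% lower with the authors' values. It was 4.68% and 6.02% with the mean of probes, and 11.4% and 4.71% with no filter on dim probes. With the Eif2s3y class as a block it was 2.96% and 5.23%, and with the slide as a block 3.93% and 5.6%. Arrays without high Eif2s3y gave 1.45% and 1.85%, and quantile normalization 3.32% and 1.42%. Array weights gave 3.28% and 4.89%, slide 1 alone 3.25% and 5.48%, and trended robust variance 3.39% and 5.17%. Without 1 array it ran from 2.1% to 3.86% higher and from 3.31% to 6.1% lower. Arrays of the same number did not all deviate together (r of 0.078 to 0.356 over 34000 probes, 3 of 5 matching their own number best), so the numbers were not taken to pair the mice. With the replicate block, further pathway genes numbered 6, members past the adjusted p 0, and lower members 1. With that block 4.39% of all named genes were higher and 7.06% lower. Of 538 gene values under alternatives, 505 were classed as the same. For Pdk4 this meant the same direction with an unadjusted p still under 0.05. For the other genes it meant an unadjusted p of 0.05 or above and a move of less than 1 SD, whatever the sign. The rest were 8 moved, 4 stronger, 11 weaker and 10 reversed. Sign changes outside these 10 lie within the 505. Isoform pairs had under 3 arrays per group within an Eif2s3y class, so that alternative was not run for them.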
